A study of Mus musculus with 4 samples.

Results

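The mitochondrial ribosomal protein genes were taken as all protein-coding genes of the deposited expression table whose symbol begins with *Mrpl* or *Mrps* and a number. By this rule 78 of 53465 genes were members, of which 49 carried the name of the large subunit (*Mrpl*) and 29 the name of the small subunit (*Mrps*). A further 5 symbols of the same form belonged to processed pseudogenes and were left out. RNA came from cultured female germline stem cells (FGSCs), labelled as mouse ovarian germ stem cells, that had been infected with a lentivirus for a control shRNA (shNC) or for an shRNA against *Nat10* (shNAT10), with 2 libraries per group and 4 in all. NAT10 is the acetyltransferase that writes N4-acetylcytidine (ac4C) on RNA. The comparison of shNAT10 with shNC asks how RNA levels in these cells differ when *Nat10* is silenced. Strain, age and time after infection are not given in the labels, and the knockdown was of a cultured line rather than of tissue. Levels are FPKM, fragments scaled by exon length and by a factor for each library. They are thus per length and were compared between genes on that scale. The factor did not follow the total of fragments on genes, and the median-ratio size factors of the FPKM were equal between libraries.

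The mitochondrial ribosome translates the mRNAs of the mitochondrial genome, which encode core subunits of the respiratory chain and the ATP synthase. Its rRNAs are transcribed in the organelle, whereas all of its proteins are encoded in the nucleus, made in the cytosol and imported. Some of these proteins descend from bacterial ribosomal proteins and others were added in the mitochondrial lineage, and several members have names that do not match the subunit in which the protein sits.

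*Nat10* itself (GRCm38, chr2:103721256-103761270) had 7.79 and 5.42 FPKM with shNC against 2.95 and 3.04 with shNAT10. Both shNAT10 libraries were below both shNC libraries, which lay farther apart than the knockdown libraries. The log2 fold change, here and below that of shNAT10 minus shNC on the log2(FPKM + 0.1) scale, was -1.09 (SE 0.21), with a limma adjusted p (Benjamini-Hochberg) of 0.123 over all genes tested. *Nat10* passed the threshold given below, though not without shNAT10-1 (log2 fold change -1.07) or shNAT10-2 (-1.11). The libraries held 11057922 to 14902438 fragments on genes, recovered from the FPKM, of which 26.8% to 48.3% lay on rRNA-related loci, the higher shares in the shNC libraries, and the part of this difference in the results below was not tested. Of 10 germline markers, 3 (*Dazl*, *Pou5f1* and *Dppa3*) were listed at 0 in all 4 libraries, *Ddx4* was above 0 in 1 library, and the list summed to 10.1 and 22.9 FPKM in shNC and 28.2 and 34.8 in shNAT10, most of it from *Ifitm3*, which is not particular to germ cells. *Ifitm3* was not called in limma and had a limma-voom adjusted p of 0.00362. Of 4 germline markers tested 0 were called, and all 4 had a log2 fold change above 0. The 5 granulosa markers summed to 0.114 to 0.485 FPKM, and none of the 2 tested was called. Of 5 pan-leukocyte markers 3 were called lower in shNAT10 (summed level 443 and 493 FPKM in shNC, 363 and 384 in shNAT10). All 3 calls (*Cd53*, *Lcp1* and *Laptm5*) were lost without shNAT10-1. With a library left out, their log2 fold changes were -0.67 to -0.50, -0.43 to -0.32 and -0.94 to -0.34. Their limma-voom adjusted p with all libraries was 0.000165, 0.00392 and 0.0150. The 7 mast cell markers summed to 312 to 323 FPKM, most of it from *Cpa3*, with *Fcer1a* and *Tpsb2* at 0 in all libraries, *Kit* and *Gata2* called lower and *Ms4a2* higher. The *Kit* call was lost without shNAT10-1, that of *Gata2* without either shNAT10 library, while that of *Ms4a2* held without each of the 4 libraries. In these fits the log2 fold change was -0.70 to -0.50 for *Kit*, -0.39 to -0.28 for *Gata2* and 1.77 to 2.47 for *Ms4a2*. Limma-voom with all libraries gave adjusted p of 0.000308, 0.0379 and 2.75e-05. The 4 macrophage markers summed to 48.1 and 52.8 FPKM in shNC and 38.0 and 43.1 in shNAT10, with *Adgre1* called lower, in 1 of the 4 fits that left out a library, and *Lyz2*, with 6 to 31 fragments per library, called higher but not without either shNC library. The 6 fibroblast markers summed to 44.8 to 60.7 FPKM, overlapping between the groups, with *Pdgfra* and *Col3a1* called higher, of which *Pdgfra* lost its call without either shNAT10 library and *Col3a1* kept its call without shNAT10-1 alone. The germline markers other than *Ifitm3* were thus at or near 0, and the part of other cell types in the differences below was not tested. In bulk RNA, fewer cells of a type and less RNA per cell cannot be told apart.

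Mitochondrial ribosomal protein mRNAs as a family had a median log2 fold change of 0.07, with a few members well above or below it. The members' median deviation from their own means had an SD of 0.03 between replicate libraries. This SD is not an error of the median log2 fold change. That median was -0.0041 without shNC-1, 0.0049 without shNAT10-1, and 0.135 with the libraries set to equal FPKM without the rRNA-related loci. A gene was called when its fold change exceeded 1.2 and its unadjusted limma p was at most 0.05, the threshold of the study. Of 77 members tested, 7 were called higher and 6 lower in shNAT10, and 64 were not called. Without shNAT10-1, and likewise without shNAT10-2, fewer members were called in either direction, and so were fewer of all genes tested. Each of these fits left a single shNAT10 library. With all libraries the share called was 16.9% of the members. Among all 20116 genes tested 8.41% were called higher and 7.83% lower, 16.2% together, so the members were called about as often as other genes. No member reached an adjusted p under 0.05 in limma, where 0.437% of all genes did, although 15 members had an unadjusted p of at most 0.05. With the test limited to genes averaging at least 1 FPKM, 1 member, *Mrpl10*, did. With limma-voom on the recovered fragments 4 members had an adjusted p under 0.05, *Mrpl10*, *Mrpl16*, *Mrps14* and *Mrpl44*, against 7.87% of all genes. Both shNAT10 libraries lay above both shNC libraries for 23 members and below them for 18, while 36 overlapped. Over all genes tested these shares were 23.9% above and 24.1% below. The split of the calls moved with the scaling: with the libraries set to equal FPKM without the rRNA-related loci, 12 members were called higher and 5 lower, and over all genes 2134 and 1146 in place of 1691 and 1576. Since 2 libraries were compared with 2, an exact permutation test of a single value cannot give a p under 0.33, and the p-values of limma measure the spread between libraries that the study calls biological replicates.

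**Figure D1:**
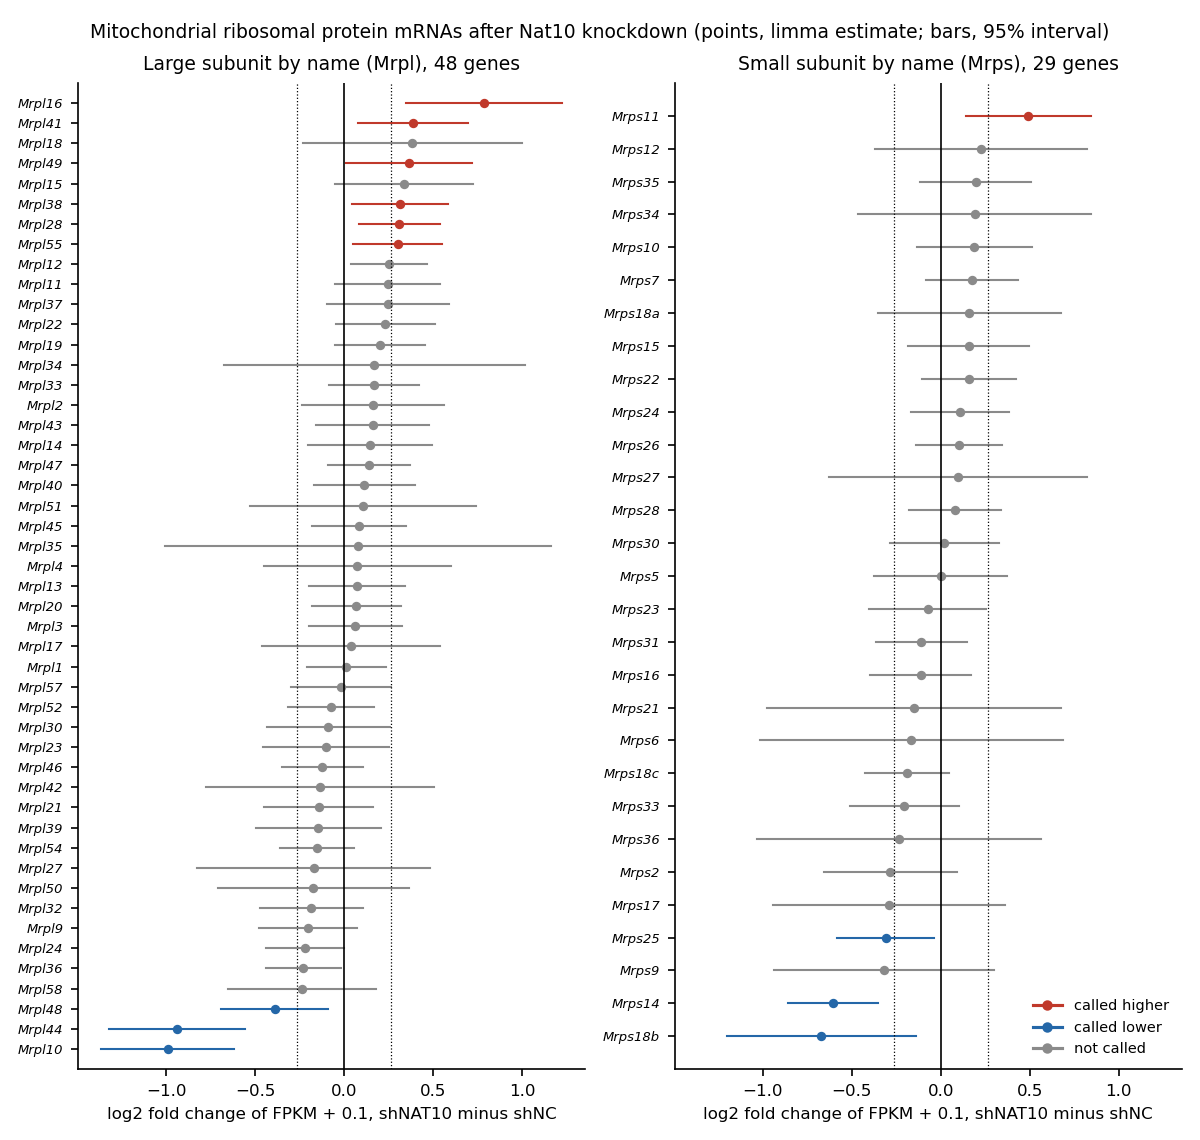
Log2 fold change (FPKM + 0.1, shNAT10 minus shNC) of each of the 77 members tested, large subunit names on the left and small on the right, with 95% intervals from limma (2 libraries per group). Dotted lines mark a fold of 1.2; red and blue are the 7 members called higher and the 6 called lower, and the gray intervals cross 0 apart from those of *Mrpl12* and *Mrpl36*.

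The members called lower were *Mrpl10*, *Mrpl44*, *Mrps14*, *Mrps18b*, *Mrpl48* and *Mrps25*, and those called higher were *Mrpl16*, *Mrps11*, *Mrpl28*, *Mrpl41*, *Mrpl55*, *Mrpl38* and *Mrpl49*. They came from both subunits. Among *Mrpl* genes 6 were called higher and 3 lower of 48, and among *Mrps* genes 1 higher and 3 lower of 29. Over all genes tested 8.41% were called higher and 7.83% lower. The median log2 fold change was 0.07 for the *Mrpl* genes and 0.00 for the *Mrps* genes (-5.58e-04), beside 0.01 over all genes tested. The difference of the medians was 0.07 and was not tested. Taken within single libraries, the large minus small difference of median deviations had an SD of 0.02 between replicates. This SD is not an error of the 0.07. The difference of the fold change medians was 0.0276 without shNAT10-1 and 0.0367 without shNAT10-2. The *Mrps* median turned to 0.07 when the libraries were scaled to equal FPKM without the rRNA-related loci and to 0.05 with equal fragments without them, and that of all genes was then 0.07 and 0.05. The summed FPKM of *Mrpl* genes was 883 and 955 with shNC against 894 and 899 with shNAT10, and that of *Mrps* genes was 342 and 369.6 with shNC against 351 in each shNAT10 library. The ratio of large to small sums was 2.58 in both shNC libraries and 2.55 and 2.56 in shNAT10 (exact permutation test, two-sided, p = 0.33, the smallest possible). The sums overlapped between the groups for both subunits. Without *Mrpl10*, an alternative chosen after the values had been seen, the *Mrpl* sum was 784 and 831 FPKM with shNC against 841 in each shNAT10 library, with no overlap, and the ratio was 2.29 and 2.25 against 2.40 in each.

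**Figure D2:**
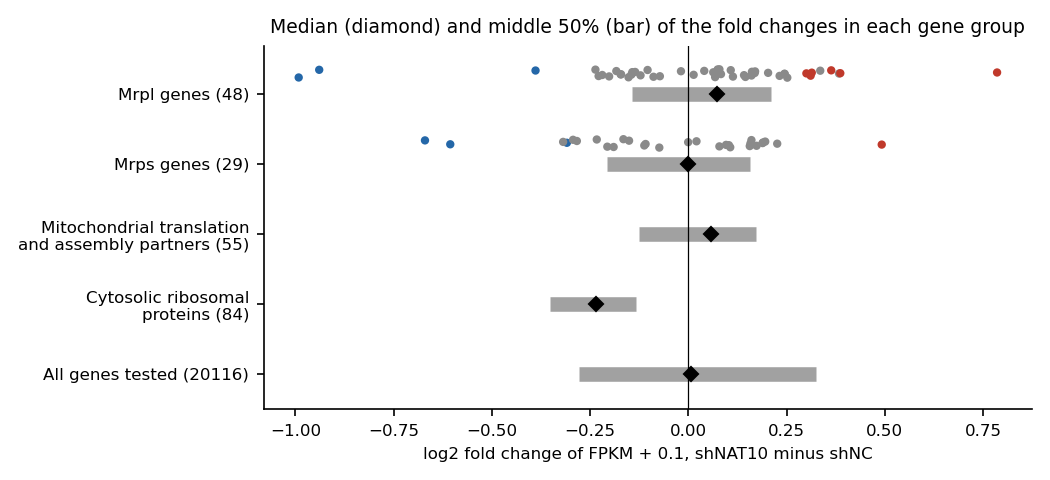
Log2 fold change (FPKM + 0.1, shNAT10 minus shNC) by gene group, with the number of genes tested in parentheses, the median as a diamond and the middle 50% of genes as a bar; dots are the single *Mrpl* and *Mrps* genes, red if called higher and blue if called lower. The medians of both mitochondrial groups lie near 0, and that of the cytosolic ribosomal proteins at -0.24.

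Several members are named for a subunit in which their protein does not sit. *Mrps30* and *Mrps18a*, whose proteins sit in the large subunit, and *Mrps36*, a component of the 2-oxoglutarate dehydrogenase complex, were not called. *Mrps30* had 4.78 and 4.87 FPKM with shNC against 5.03 and 4.76 with shNAT10, with a log2 fold change of 0.02 (SE 0.12). *Mrps18a* had control levels of 2.19 and 2.97 FPKM and knockdown levels of 2.83 and 2.90. The groups overlapped for *Mrps30*, *Mrps18a* and *Mrps36*. By structure the large subunit had 6 higher and 3 lower of 50 and the small subunit 1 higher and 3 lower of 26, with medians of 0.07 and -0.04. These counts stand beside 8.41% higher and 7.83% lower over all genes tested.

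The sequence upstream of the members was read from RefSeq (GRCm38.p6), which held a start window for 69 of the 78. The longest stretch of the 250 bases before the start that holds no annotated exon is given for *Mrpl10*, *Mrpl44*, *Mrps14* and *Mrpl16*, the 4 members with the smallest p. That of *Mrpl10* lies between it and *Lrrc46*, and that of *Mrpl44* lies within *Wdfy1* on the other strand. Capitals mark CCGGAA, the core of ETS factor sites, and GCGCATGC, the core of the NRF1 site, on either strand. A gene was counted once for each motif that any of its windows held, and overlaps between motifs were not removed. Sequences run 5′ to 3′ on the strand of the member.
Mrpl10 (chr11:97041408-97041559, plus strand): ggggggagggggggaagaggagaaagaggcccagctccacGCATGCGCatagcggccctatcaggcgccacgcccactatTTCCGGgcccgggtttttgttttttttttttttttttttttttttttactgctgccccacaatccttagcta
Mrpl44 (chr1:79775768-79775959, plus strand): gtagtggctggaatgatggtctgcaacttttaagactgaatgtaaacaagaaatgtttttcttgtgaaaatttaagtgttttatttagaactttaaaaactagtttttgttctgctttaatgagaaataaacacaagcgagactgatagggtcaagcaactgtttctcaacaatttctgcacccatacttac
Mrps14 (chr1:160194965-160195214, plus strand): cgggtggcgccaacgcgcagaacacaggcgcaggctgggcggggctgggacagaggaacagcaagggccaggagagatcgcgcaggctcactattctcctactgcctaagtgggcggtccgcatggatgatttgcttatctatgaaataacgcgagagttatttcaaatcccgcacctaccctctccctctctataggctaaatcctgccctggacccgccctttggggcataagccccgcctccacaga
Mrpl16 (chr19:11770165-11770390, plus strand): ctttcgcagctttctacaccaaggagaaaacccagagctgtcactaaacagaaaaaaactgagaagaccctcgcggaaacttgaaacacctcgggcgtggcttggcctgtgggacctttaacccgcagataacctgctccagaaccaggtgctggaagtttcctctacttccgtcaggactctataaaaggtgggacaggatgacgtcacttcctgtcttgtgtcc
The *Mrpl10* stretch, all 152 bases between it and *Lrrc46*, holds 1 match of each motif, with the NRF1 letters beginning 134 and the ETS letters 94 bases before the RefSeq start. No match lay in the other 3 stretches, which says only that these letters are absent there. In *Mrpl44* and *Mrps14* the ETS letters lie just past the start, in bases not printed.

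Among the large subunit proteins, *Mrpl10* had the largest fall of the family. By mean FPKM it was the highest member in shNC and ranked below *Mrpl12*, *Mrpl54* and *Mrps23* in shNAT10. Its protein is the homologue of bacterial L10, the base of the ribosomal stalk that carries the L7/L12-type protein MRPL12 and contacts translation factors. *Mrpl10* (chr11:97041560-97049213, plus strand) had 98.3 and 124 FPKM with shNC against 52.9 and 58.2 with shNAT10. Both shNAT10 libraries were far below both shNC libraries. The mean was 111 ± 18.3 FPKM (SD, n = 2) in shNC and 55.6 ± 3.75 FPKM (SD, n = 2) in shNAT10, 2.00-fold lower. On the log2 scale the fold change was -0.99 (SE 0.14), with a 95% interval of -1.37 to -0.62, limma adjusted p = 0.0842. Limma-voom gave an adjusted p of 5.20e-07. Without shNAT10-1 the call was narrowly lost, at a log2 fold change of -0.92, and it held without any other library.

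*Mrpl12*, the partner of *Mrpl10* in the stalk and the highest member by mean FPKM over the 4 libraries, was not called. *Mrpl12* had 101 and 102 FPKM with shNC against 117 and 124 with shNAT10, no overlap between the groups, and a log2 fold change of 0.25 (SE 0.08, limma adjusted p = 0.247), a fold under 1.2. The ratio of *Mrpl10* to *Mrpl12* in FPKM was 0.971 and 1.22 with shNC against 0.451 and 0.468 with shNAT10. The ratio, chosen after the values had been seen, was thus below 0.5 in both knockdown libraries and did not overlap with the controls (exact permutation test, two-sided, p = 0.33, the smallest possible). *Mrpl12* shares 200 bases of exon with the lincRNA *Gm16755* on the other strand, which was called higher with control levels of 101 and 95.2 FPKM and knockdown levels of 120.5 and 128. *Gm16755* lost its call without shNAT10-2 (0.30).

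*Mrpl44* encodes a large subunit protein with a fold like that of RNase III. *Mrpl44* (chr1:79776018-79781445, plus strand) had 3.63 and 3.89 FPKM with shNC against 1.84 and 1.98 with shNAT10. The groups did not overlap and the libraries within each group lay close together. The log2 fold change was -0.94 (SE 0.14), with a 95% interval of -1.32 to -0.56, limma adjusted p = 0.0933. The gene had 38 to 76 fragments per library, and its limma-voom adjusted p was 0.0331. The call held without each of the 4 libraries, at log2 fold changes of -0.99 to -0.89.

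*Mrpl48*, a protein of the central protuberance of the large subunit, was lower by a smaller amount. It had 5.60 and 5.55 FPKM with shNC against 4.34 and 4.13 with shNAT10, and the groups did not overlap. This amounted to a log2 fold change of -0.39 (SE 0.11, limma adjusted p = 0.225). The call was lost without shNAT10-1 (-0.42) and without shNAT10-2 (-0.35). The processed pseudogene *Mrpl48-ps*, 98.11% identical over 636 bases, had 13.4 and 14.2 FPKM in shNC and 12.3 and 11.3 in shNAT10, so reads of this pair could have been assigned to either locus.

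Of the large subunit genes called higher, *Mrpl16* had the largest rise of the family. Its protein is the homologue of bacterial L16, which lies near the peptidyl transferase centre. *Mrpl16* (chr19:11770391-11774960, plus strand) had control levels of 6.45 and 8.56 FPKM and knockdown levels of 12.4 and 13.4. The shNAT10 libraries were both well above the shNC libraries, although the shNC libraries themselves differed. The mean was 7.50 ± 1.49 FPKM (SD, n = 2) in shNC and 12.9 ± 0.760 FPKM (SD, n = 2) in shNAT10, a 1.72-fold rise. In log2 units the change was 0.79 (SE 0.17), with a 95% interval of 0.35 to 1.23 (limma adjusted p = 0.143, limma-voom adjusted p = 0.000876). Without shNAT10-1 it was 0.85 and without shNAT10-2 0.73, in each case no longer called.

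The other large subunit genes called higher rose by 1.23- to 1.31-fold. *Mrpl28*, the homologue of bacterial L28, had 20.7 and 21.3 FPKM with shNC against 26.9 and 25.3 with shNAT10, with a log2 fold change of 0.31 (SE 0.09). *Mrpl41*, a protein particular to mitochondria, had 8.82 and 10.3 FPKM with shNC against 12.5 and 12.6 with shNAT10, with a log2 fold change of 0.39 (SE 0.12). In both genes the lower shNAT10 library was above the higher shNC library. *Mrpl38*, which belongs to the central protuberance like *Mrpl48*, had control levels of 8.88 and 9.35 FPKM and knockdown levels of 10.9 and 11.8, with a log2 fold change of 0.31 (SE 0.10). *Mrpl55*, the counterpart of bacterial L31, had 10.3 and 9.92 FPKM with shNC against 12.8 and 12.1 with shNAT10, with a log2 fold change of 0.30 (SE 0.09). *Mrpl49* had 3.51 and 3.67 FPKM with shNC against 4.35 and 4.96 with shNAT10, with a log2 fold change of 0.36 (SE 0.13). The groups did not overlap for any of the 5. Their limma adjusted p was 0.210 to 0.294. In limma each of these calls was lost in at least 1 fit that left out a library, where a group held a single library. What part the smaller group had in these losses was not tested. *Mrpl28* lost its call without shNAT10-1 (0.27), and *Mrpl41* without shNAT10-1 (0.39) or shNAT10-2 (0.38). *Mrpl55* kept its call only without shNC-1, with values of 0.26 to 0.34 over the 4 fits, while *Mrpl38* (0.26 to 0.37) and *Mrpl49* (0.27 to 0.46) lost theirs whichever library was left out.

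In the small subunit, *Mrps14* had close replicates and was called lower. Its protein, the homologue of bacterial S14, is part of the head of the subunit. *Mrps14* (chr1:160195215-160202170, plus strand) had control levels of 11.1 and 11.4 FPKM and knockdown levels of 7.36 and 7.31. The gap between the groups was many times the gap within either group. The mean was 11.2 ± 0.228 FPKM (SD, n = 2) in shNC and 7.33 ± 0.0373 FPKM (SD, n = 2) in shNAT10. Limma gave a log2 fold change of -0.61 (SE 0.10), with a 95% interval of -0.86 to -0.35, limma adjusted p = 0.0950 and limma-voom adjusted p = 0.00666. It was called without each of the 4 libraries, at -0.63 to -0.59. *Mrps14* and *Mrpl44* were the 2 members whose calls held in all 4 of these fits, and *Mrps14* is also the called-lower member that shares no exon base with another gene and has no close pseudogene copy.

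*Mrps18b* is 1 of 3 mitochondrial relatives of bacterial S18, with *Mrps18a* and *Mrps18c*. *Mrps18b* had 3.26 and 3.95 FPKM with shNC against 1.95 and 2.53 with shNAT10, with both shNAT10 libraries below both shNC libraries and gaps between replicates above the family's median gap in both groups. The log2 fold change was -0.67 (SE 0.20, limma adjusted p = 0.230), and the call was lost without each library in turn, at -0.85 to -0.49. *Mrps18a* and *Mrps18c* were not called, with log2 fold changes of 0.16 (SE 0.20) and -0.19 (SE 0.09). The differences between the relatives were not tested. *Mrps25*, a protein particular to mitochondria, had 7.85 and 7.53 FPKM with shNC against 6.25 and 6.12 with shNAT10, with a log2 fold change of -0.31 (SE 0.10, limma adjusted p = 0.260). Its groups did not overlap, and the call held without shNC-2 alone, with values of -0.34 to -0.28 in the 4 fits.

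*Mrps11*, the homologue of bacterial S11 in the platform of the small subunit, was the *Mrps* gene called higher. *Mrps11* (chr7:78783119-78792989, plus strand) had control levels of 10.2 and 8.30 FPKM and knockdown levels of 12.9 and 13.0. The shNAT10 libraries agreed closely and both exceeded the higher shNC library. The log2 fold change was 0.49 (SE 0.13, limma adjusted p = 0.205), and without shNAT10-1 or shNAT10-2 it was 0.50 or 0.49 and no longer passed.

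**Figure D3:**
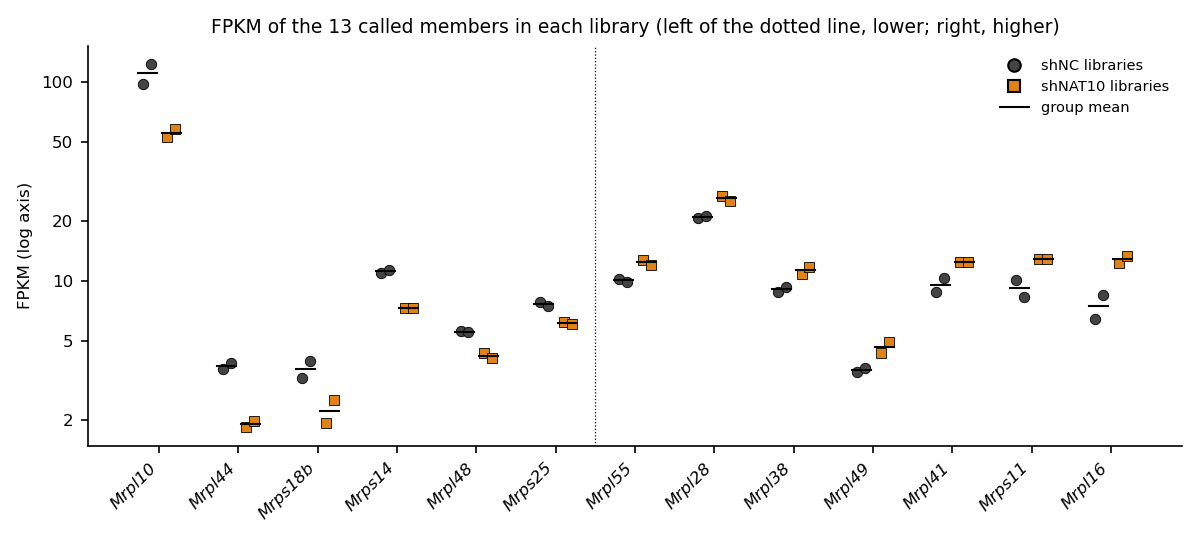
FPKM (log axis) of the 13 called members in each library, with shNC as circles, shNAT10 as squares and the group means as lines (n = 2 each). In each gene both shNAT10 libraries lie on the same side of both shNC libraries, from *Mrpl10* at 98.3 and 124 against 52.9 and 58.2 on the left to *Mrpl16* at 6.45 and 8.56 against 12.4 and 13.4 on the right.

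Levels within the family spanned more than 2 orders of magnitude per length. The 5 highest members by mean FPKM over the 4 libraries were *Mrpl12* (111), *Mrpl10* (83.4), *Mrpl54* (78.0), *Mrps23* (64.6) and *Mrpl20* (43.7). *Mrpl54* had 81.2 and 83.0 FPKM with shNC against 75.5 and 72.3 with shNAT10, which did not overlap, but its log2 fold change of -0.15 (SE 0.08) was not called. *Mrps23* and *Mrpl20* overlapped between the groups, with log2 fold changes of -0.07 (SE 0.13) and 0.07 (SE 0.09). The 10 highest members held 44.1% of the summed FPKM of the family. In all 42 members were above 10 FPKM on average and 5 were under 2.

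At the low end, *Mrpl53* was listed at 0 in all 4 libraries and was not tested. On GENCODE M21, 87.97% of its exon bases are shared on the same strand with *Gm42688*, which limits what this 0 says of the gene. The next lowest were *Mrpl35* (0.463 FPKM on average), *Mrps6* (0.882), *Mrps36* (1.14) and *Mrps17* (1.58). None of these was called, and their libraries overlapped between the groups. *Mrpl35* had 0.449 and 0.424 FPKM with shNC against 0.649 and 0.328 with shNAT10 and *Mrps6* control levels of 0.970 and 0.880 FPKM and knockdown levels of 1.06 and 0.619, from 98 and 68 fragments in all. Shorter exon models went with higher FPKM across the members (Spearman's rho -0.375 across 78 genes, which share libraries and are not independent replicates).

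Of the 77 members, 47 (61%) had a log2 fold change within 0.2 of 0, beside 36.4% of all genes and 44.4% of protein-coding genes tested. The members also had a higher median level, 10.4 FPKM against 1.75 and 3.48, and the part of level in these shares was not tested. The groups overlapped for 36 members (46.8%), beside 52% of all genes and 45.4% of protein-coding genes. The gap between the 2 shNC libraries had a median absolute size of 0.160 on the log2 scale and was largest in *Mrps27* (0.767), and that between the shNAT10 libraries was 0.0911 and largest in *Mrpl35* (0.807). A fold over 1.2 without a call was seen in 5 members. *Mrpl18*, the homologue of bacterial L18, was the largest of these, with 7.80 and 12.3 FPKM with shNC against 13.1 and 12.5 with shNAT10. A single shNC library lay well below the other 3, and its log2 fold change of 0.38 (SE 0.23) had a limma adjusted p of 0.499. The others were *Mrpl15* (0.34, SE 0.15), *Mrps9* (-0.32, SE 0.23), *Mrps17* (-0.29, SE 0.25) and *Mrps2* (-0.28, SE 0.14). With *Mrpl12*, *Mrpl36* had an unadjusted p of at most 0.05 and a fold under 1.2, with 26.3 and 25.8 FPKM with shNC against 22.2 and 22.2 with shNAT10. Neither *Mrpl45* nor *Mrpl58*, named here for their roles, was called. *Mrpl45*, near the exit of the nascent chain tunnel, had control levels of 14.4 and 16.0 FPKM and knockdown levels of 15.8 and 16.4 and a log2 fold change of 0.08 (SE 0.10), and *Mrpl58* (ICT1), a peptidyl-tRNA hydrolase built into the large subunit, had 2.79 and 2.53 FPKM with shNC against 2.37 and 2.11 with shNAT10 and -0.24 (SE 0.16).

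Many of these genes share their start region with another gene. On GENCODE M21, 33 members had a protein-coding gene on the other strand whose start lay within 1 kb, which made 32 pairs because *Mrps11* and *Mrpl46* face each other. All 33 neighbours, *Mrps11* and *Mrpl46* included, were tested, and 6 (18.2%) were called higher and 6 (18.2%) lower, beside 8.41% and 7.83% of all genes. Of these 12 calls, 6 held in 1 of the 4 fits that left out a library, 5 in 2 or 3, and that of *Lrrc46* in all 4. Both genes were called in the same direction in 3 pairs, all lower, and in opposite directions in 1 pair. *Mrpl10* and *Lrrc46*, whose starts lie 153 bases apart, were the strongest pair. *Lrrc46* had 7.33 and 6.05 FPKM with shNC against 2.86 and 2.39 with shNAT10, with a log2 fold change of -1.32 (SE 0.17) and a limma adjusted p of 0.0749. *Mrps18b* was paired with *Ppp1r10*, a regulatory subunit of a nuclear phosphatase, at 45 bases. *Ppp1r10* had control levels of 8.21 and 7.67 FPKM and knockdown levels of 5.24 and 6.23, with a log2 fold change of -0.47 (SE 0.13), and kept its call without shNAT10-2 alone (-0.59). *Mrpl48* was paired with *Rab6a*, a Golgi small GTPase, which had 28.0 and 27.4 FPKM with shNC against 23.5 and 21.2 with shNAT10, with a log2 fold change of -0.31 (SE 0.09), and kept its call without shNAT10-1 alone (-0.38). These 2 genes share 708 bases of exon on opposite strands.

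In other pairs the genes were not called in the same direction. *Mrpl49* was called higher, whereas *Fau*, 59 bases away, which encodes a ubiquitin-like fusion with the cytosolic ribosomal protein S30, was called lower with 511 and 539.6 FPKM with shNC against 411 and 391.9 with shNAT10 and a log2 fold change of -0.39 (SE 0.10). *Fau* lost its call without shNAT10-1 (-0.42) or shNAT10-2 (-0.35). *Mrpl44* was called lower, whereas *Wdfy1*, with which it shares 126 bases of exon around the starts, had control levels of 4.99 and 5.86 FPKM and knockdown levels of 5.16 and 5.52, with a log2 fold change of -0.02 (SE 0.14). In the *Mrps11* and *Mrpl46* pair, *Mrpl46*, also a large subunit protein, had 22.3 and 21.3 FPKM with shNC against 20.4 and 19.6 with shNAT10 and was not called (-0.12, SE 0.09). Across the 32 pairs Pearson's r of the log2 fold changes was 0.377 and Spearman's rho 0.137, and r was 0.134 without the *Mrpl10* pair. These are descriptions over gene pairs that share the same 4 libraries.

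**Figure D4:**
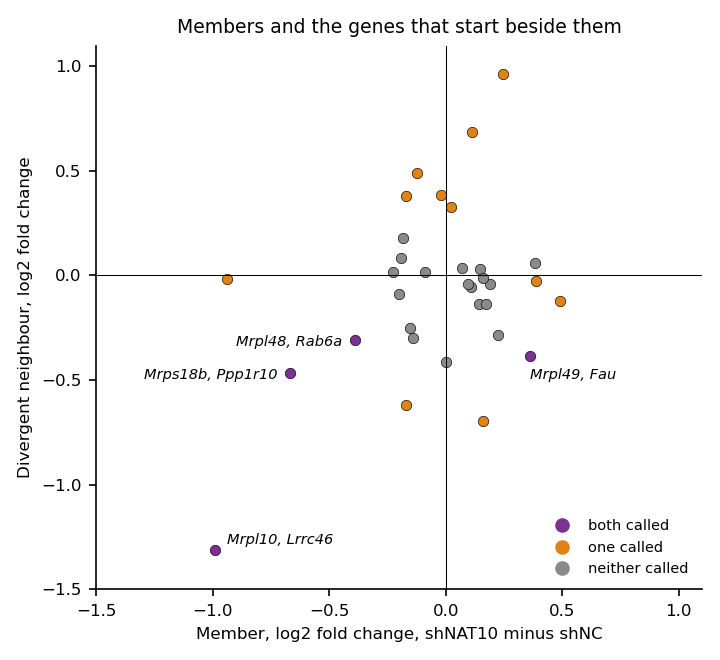
Log2 fold change (shNAT10 minus shNC) of members against that of the protein-coding gene starting within 1 kb on the other strand; *Mrps11* and *Mrpl46* appear once each as the member. The 4 labelled pairs had both genes called, with *Mrpl10* and *Lrrc46* at -0.99 and -1.32 and *Mrpl49* and *Fau* at 0.36 and -0.39.

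Because *Mrpl10* and *Lrrc46* were both lower, the genes around the 4 members with the smallest p were examined, a choice made after their values had been seen. Within 50 kb of *Mrpl10*, 6 other genes were tested, of which 2, *Lrrc46* and *Gm11574*, were called lower and 1 higher. *Gm11574*, a processed transcript that shares 240 bases of exon with *Mrpl10* on the other strand, had 38.7 and 45.6 FPKM with shNC against 24.1 and 23.9 with shNAT10, with a log2 fold change of -0.81 (SE 0.11). *Lrrc46* and *Gm11574* were called without each library in turn. *Sp6* and *Gm11532*, at 0.0509 to 0.288 FPKM over the libraries, were not called, and *Scrn2* was called higher (0.99, SE 0.36, at 0.329 to 1.08 FPKM), a call that held without shNC-1 alone (1.37). *Osbpl7*, 1415 bases beyond the end of *Mrpl10* on the same strand, had control levels of 1.24 and 1.18 FPKM and knockdown levels of 1.05 and 1.44 and was not called. Around *Mrpl44*, *Mrps14* and *Mrpl16* no other gene tested within 50 kb was called lower. *Serpine2*, 12752 bases from *Mrpl44*, was called higher (0.91, SE 0.33), at 0.285 to 0.788 FPKM, and lost its call without each library in turn (0.75 to 1.06). *Cacybp*, which ends 197 bases from the end of *Mrps14* on the other strand and encodes a calcyclin-binding protein, was called higher with 55.2 and 56.4 FPKM with shNC against 76.7 and 72.5 with shNAT10 and a log2 fold change of 0.42 (SE 0.08), in all 4 fits that left out a library, opposite to *Mrps14*. *Stx3*, 158 bases beyond *Mrpl16*, was not called (-0.09, SE 0.10).

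**Figure D5:**
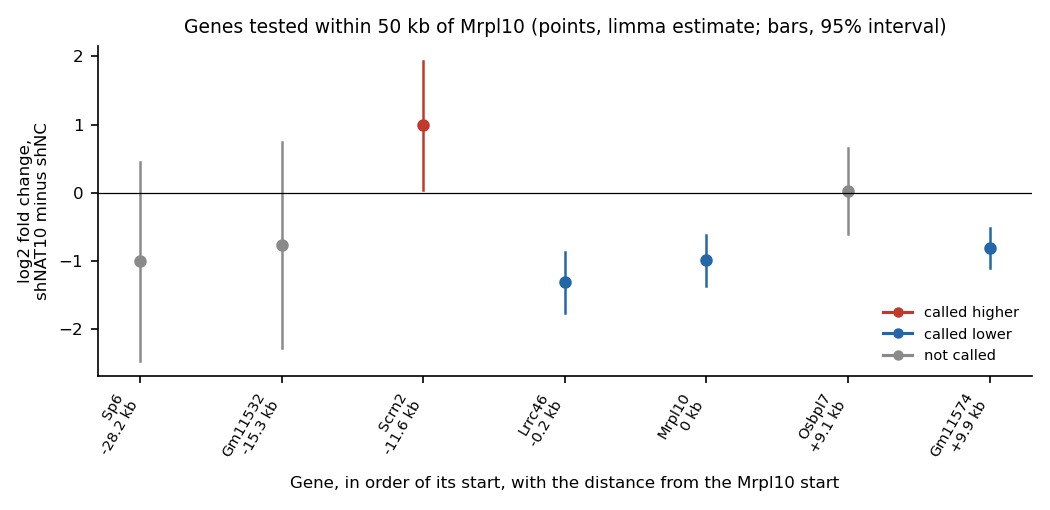
Log2 fold change (shNAT10 minus shNC, with 95% limma intervals) of the genes tested within 50 kb of *Mrpl10*, ordered by the distance of their start from the *Mrpl10* start. *Lrrc46* at -1.32, *Mrpl10* at -0.99 and *Gm11574* at -0.81 were called lower, and *Osbpl7* at 0.03 was not.

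In windows that reach 50 bases past the start, CCGGAA was found on either strand in 40 of 69 members (58.0%). It was found in 31.1% of 9924 expressed protein-coding genes and in 16.7% of all 27025 genes with a window. AAGATGGC, the core of the YY1 site, was found in 12 members (17.4%), beside 5.20% and 3.19%. GCGCATGC was found in 8 (11.6%), beside 5.92% and 3.05%. GGGCGG, the GC box, was in 49.3% of the members, beside 67.5% of expressed protein-coding genes and 38.2% of all genes with a window. CCAAT was in 39.1%, beside 43.2% and 41.1%, and CACGTG, the E-box, in 7.25%, beside 11.5% and 8.09%. None of these differences was tested. Among the 12 called members with a window, 6 held CCGGAA and 2 AAGATGGC. A match is a string of letters and no evidence of binding.

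Partner genes of mitochondrial translation were described with the same threshold. Of 55 such genes, 3 were called higher and 2 lower, with a median log2 fold change of 0.06, beside 8.41% of all genes called higher and 7.83% lower. None of 5 mitoribosome proteins under other names was called, among them *Dap3* (8.39 and 8.74 FPKM with shNC against 6.77 and 7.57 with shNAT10) and *Ptcd3* (control levels of 6.16 and 4.81 FPKM and knockdown levels of 6.75 and 5.22). Of 13 translation factors and membrane partners 2 were lower. *Tsfm*, the mitochondrial elongation factor Ts, had 11.9 and 12.3 FPKM with shNC against 8.50 and 8.45 with shNAT10, with a log2 fold change of -0.51 (SE 0.09) and a limma adjusted p of 0.121, and was called without each library in turn. *Oxa1l*, the inner membrane insertase that binds the ribosome, had 7.09 and 6.92 FPKM with shNC against 5.92 and 5.12 with shNAT10, with a log2 fold change of -0.34 (SE 0.12), a call that held without shNAT10-1 alone (-0.44). Of 24 assembly factors 2 were higher. *Gtpbp10*, a GTPase of large subunit assembly, had control levels of 2.61 and 2.43 FPKM and knockdown levels of 4.01 and 3.37 (0.53, SE 0.16), and its call held without shNAT10-2 alone (0.65). *Rcc1l* had 10.6 and 10.9 FPKM with shNC against 13.1 and 13.5 with shNAT10 (0.31, SE 0.09) and lost its call without shNAT10-1 (0.33) or shNAT10-2 (0.29). Of 13 genes of mitochondrial DNA expression *Pnpt1*, the mitochondrial polynucleotide phosphorylase, was higher (0.27, SE 0.09), a call that held without shNC-1 alone (0.34).

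The RNAs that the mitochondrial ribosome contains and translates were read in the same libraries. The mitochondrial rRNAs *mt-Rnr1* and *mt-Rnr2* were not called, with log2 fold changes of -0.14 (SE 0.19) and -0.21 (SE 0.27). Of the 13 mitochondrial protein-coding transcripts 11 were not called and the median log2 fold change was -0.02. Those called were *mt-Atp8*, listed at 0 in both shNC libraries and at 0.391 and 0.320 FPKM in shNAT10, and *mt-Nd4l*, at 2.87 and 1.99 FPKM in shNC and 1.34 and 0.659 in shNAT10. Both were the lowest in a set that reached 4214 FPKM in *mt-Nd1*, and *mt-Nd4l* kept its call without shNAT10-1 alone. Limma-voom gave adjusted p of 0.641 for *mt-Atp8* and 0.376 for *mt-Nd4l*. It passed 0.05 for 2 abundant transcripts that limma did not call. *mt-Cytb*, which encodes cytochrome b, had 2209 and 1898 FPKM with shNC against 2529.9 and 2765 with shNAT10 (limma-voom adjusted p = 0.00294), with no overlap between the groups. *mt-Co1*, a core subunit of cytochrome c oxidase, had 3171 and 2550.0 FPKM against 2639.9 and 1846 (limma-voom adjusted p = 0.0285), and its groups overlapped.

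Cytosolic ribosomal proteins gave other values than their mitochondrial counterparts on the same scale. Of 84 cytosolic genes tested 1 was called higher and 22 lower, with a median log2 fold change of -0.24. Of 77 members 7 were called higher and 6 lower, with a median of 0.07. Over all genes tested 8.41% were called higher and 7.83% lower. The cytosolic median lay between -0.25 and -0.17 under the scalings tried, and was -0.35 without shNC-1 and -0.12 without shNC-2. The counts of cytosolic genes called lower ran from 1 without shNAT10-2 and 9 without shNC-2 to 36 without shNC-1. The median absolute log2 fold change was 0.17 in the members and 0.24 in the cytosolic genes. The difference between the families was not tested.

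Exon sharing and copies bear on many single values, because the strand used in counting is not stated. Of the members, 33 share exon bases with another gene, 8 of them on the same strand, and 3 share more than 50% of their exon bases, *Mrpl53*, *Mrps34* and *Mrps25*. Of the 13 called members 7 share exon bases. *Mrps25* shares 69.8% with *Nr2c2* on the other strand, which was also called lower with 5.53 and 5.18 FPKM with shNC against 4.20 and 4.33 with shNAT10 (-0.32, SE 0.12), a call that held without shNC-2 alone (-0.37). The shared part was 30.5% in *Mrps18b*, 14.1% in *Mrpl10*, 8.69% in *Mrpl48*, 7.97% in *Mrps11*, 7.66% in *Mrpl44* and 4.85% in *Mrpl49*. A processed pseudogene at least 95% identical over at least 200 bases was found for 18 members, among them *Mrpl41*, *Mrps18b* and *Mrps25*, whose copies were listed at 0 to 0.404 FPKM. Among the 43 members with neither shared exon bases nor a pseudogene by name, 5 were called higher and 1 lower, *Mrps14*, beside 8.41% and 7.83% of all genes. The part of shared exons and copies in the other calls was not tested.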

How the data were processed

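RNA was sequenced from shNC and shNAT10 FGSCs in 2 libraries per group, and libraries were grouped by their titles. According to the methods the authors depleted rRNA, aligned reads with HISAT2 and compared groups with DESeq2; the labels name mm10 and describe an Oligotex mRNA isolation, so the sources differ on library preparation. The authors deposited FPKM per gene, in which the median-ratio size factors of the libraries were equal. A second deposited table holds the authors' own comparison and was not used. Columns of single libraries left out numbered 0.

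From the deposited FPKM, log2(FPKM + 0.1) was tested with limma 3.58.1 in R 4.3.3 (trended eBayes, two-sided, no term for the replicate number), over 20116 genes whose FPKM averaged at least 0.1. The scale understates changes of low genes. Exon models, overlaps and neighbours came from GENCODE M21, in which 53360 of 53465 gene identifiers were found. Fragments were recovered as whole numbers from FPKM and exon length; 96.0% to 96.6% of values under 50 fragments lay within 0.02 of a whole number, and limma-voom on them was an alternative. Depth was 11057922 to 14902438 fragments per library. Pseudogene copies were searched in the reference transcripts, and RefSeq windows gave the promoters. Python 3.11.15 with pandas 2.3.3 was used for summaries. The test was tested on simulated data with log2 fold changes larger than that of any member, which says nothing of smaller changes.

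The members, the gene lists and the tests were chosen with earlier results of these data known. Genes named are every called member, the 5 highest and 5 lowest by mean FPKM, the 5 largest rises and falls at an average of at least 1 FPKM, and members with names or roles of interest; neighbours, ratios and single cell type markers were named after their values were seen. Alternatives were pseudocounts of 1 and 0.01, no filter, an average of at least 1 FPKM, other scalings, limma without trend, the replicate number as a block and each library left out. Protein sequences were not analysed here. The genes around 4 members were limited to 50 kb after their values were seen, and genes farther away are not reported here.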

Additional observations from a re-analysis of the deposited data

How the results depend on the processing

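The counts of 7 members called higher and 6 called lower held within 1.5 times under both other pseudocounts and both other filters. They also did under protein-coding and quantile scaling, the replicate block and limma-voom. Median-ratio rescaling was no test of them, because the median-ratio size factors were already equal. Members called higher were 12 with equal FPKM and 11 with equal fragments outside the rRNA-related loci, and 1 in limma without trend. Leaving out a library gave 0 to 9 called higher and 2 to 6 called lower, and 11 of the 13 calls were lost in at least 1 of these fits, with 2 kept without shNAT10-1 and 4 without shNAT10-2, where the lone library is assumed to vary like the others. Without members that overlap another gene or have a pseudogene by name, 1 was called lower. The cause of these changes was not tested, apart from the fewer samples or members used.

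The median log2 fold change of all members was 0.135 with equal FPKM and 0.118 with equal fragments outside the rRNA-related loci, and -0.0041 to 0.0548 with a library left out. For *Mrpl* genes it was 0.139 with equal FPKM and 0.00843 to 0.107 with a library left out. For *Mrps* genes it was 0.0680 with equal FPKM, 0.0488 with equal fragments, -0.0372 by structure, -0.0739 without members that share exons or have a named pseudogene, and -0.0929 to 0.0228 with a library left out. The difference of large minus small was 0.110 by structure, 0.155 without the same members, and 0.0276 to 0.107 with a library left out. Partner genes called were 3 in limma without trend, 8 in limma-voom, and 2 to 7 with a library left out. The log2 fold change of the large to small sum ratio was -0.015 with all members and 0.0783 without *Mrpl10*. The *Nat10* log2 fold change was -1.35 to -0.83 with a library left out.

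Direction changed with a library left out for 23 members, of which 0 were called with all libraries. Among them were *Mrpl20* (-0.0041 to 0.140), *Mrpl35* (-0.324 to 0.482), *Mrps18a* (-0.0498 to 0.371), *Mrps23* (-0.218 to 0.0703), *Mrps30* (-0.0192 to 0.0606), *Mrps36* (-0.531 to 0.0650) and *Mrps6* (-0.509 to 0.179). It also changed for *Mrpl35* with quantile normalization (-0.0093). Of all genes, 88 had a limma adjusted p under 0.05, but 0 did with a pseudocount of 1 or 0.01, without the filter, without trend, with the replicate block or with a library left out; 296 did at a mean FPKM of at least 1, 1 member (*Mrpl10*) among them.

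The replicate numbers are shared by the groups in name alone: deviations of same-numbered libraries correlated at 0.0071 over 2 pairs. The replicate block gave 6 members higher and 5 lower. The lowest count behind a called member was 38 fragments in a library.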
